A study of Homo sapiens with 32 samples.

Results

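HGrC1 granulosa cells that had grown in 0.01 µM perfluorooctane sulfonate (PFOS) for 12 weeks were compared with cultures of the same exposure after 6 weeks. The comparison used 8 of the 32 RNA libraries of the series, chosen by their labelled concentration and time, with 4 libraries at 6 weeks and 4 at 12 weeks. HGrC1 is an immortalized line of non-luteinized human granulosa cells, so the libraries describe one line and not a follicle. PFOS is a persistent perfluorinated surfactant that was added again at each subculture. Each of 4 frozen vials was thawed and split into 4 cultures, 1 with the 0.05% DMSO vehicle alone and the others with PFOS at 0.01 µM, 0.1 µM and 1 µM in that vehicle. The medium of all cultures held 100 nM of a steroid, estradiol by the sample labels and testosterone by the study's methods. One library per vial was made at each time, so the 4 libraries of a group are separate vials of 1 line (n = 4). There was no library before exposure, and all 12-week libraries are later in culture as well as in exposure. Within these 8 libraries, culture age, length of exposure and any difference in RNA preparation between the 2 times cannot be told apart. The vehicle cultures without PFOS were sampled at the same 2 times, and their changes are set beside these further below.

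Granulosa cells surround the oocyte. They take up cholesterol, cleave its side chain with CYP11A1, turn pregnenolone into progesterone with HSD3B enzymes and make estradiol from androgens with aromatase (CYP19A1). They also secrete inhibin and activin subunits, follistatin and matrix proteins that hold the follicle together. Cells kept dividing for many passages are known to drift in such differentiated functions, in matrix production and in growth control.

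The 8 libraries were of nearly equal depth, with 18080396 to 18448810 counts each. The first principal component carried 60.2% of the variance and separated all 4 libraries of 6 weeks from all 4 of 12 weeks. Transcripts of the mitochondrial genome made up 3.54 to 5.41% of counts, with no separation of the times, while ribosomal protein genes made up 4.08 to 4.36% at 6 weeks and 4.79 to 6.07% at 12 weeks. The label was checked against 12 granulosa markers, of which 10 had values. WT1 (64.3 and 67.0 CPM, counts scaled for library size, at 6 and 12 weeks), GATA4 (139 and 127 CPM) and AMH (13.7 and 13.7 CPM), which encode gonadal transcription factors and anti-Müllerian hormone, were well expressed and did not pass the test for a change. Of the 7 markers that could be tested, 2 fell, INHBA and FOXL2, and none rose. CYP19A1 had 0 counts in all 8 libraries, which allows up to 3 counts per library, and NR5A1, the SF-1 nuclear receptor, lay between 0 and 0.384 CPM. The 10 markers summed to 4891 to 5180 counts per library at 6 weeks and 4375 to 4942 at 12 weeks.

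Between 6 and 12 weeks at 0.01 µM PFOS, 4390 of 12647 genes tested changed (34.7%; edgeR's quasi-likelihood test, Benjamini-Hochberg adjusted p at or under 0.05), 2046 higher (16.2%) and 2344 lower (18.5%). Most changes were small. The median size among the genes that changed was 0.32 on the log2 scale and 3497 of them moved by less than 1.5-fold. The 383 DEGs (3.03%), here the changed genes that moved at least 2-fold, were mostly lower, 340 (2.69%) against 43 higher (0.34%). The 2 groups did not overlap for 4249 genes (33.6%), and 6214 genes (49.1%) moved the same way in all 4 vials. In bulk RNA, fewer cells with a transcript and less transcript per cell cannot be told apart. Among DEGs with a mean of at least 30 CPM, 31 were lower and 2 higher. In the plot of change against level, the large falls extend to abundant genes while the large rises sit at low levels.

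**Figure D1:**
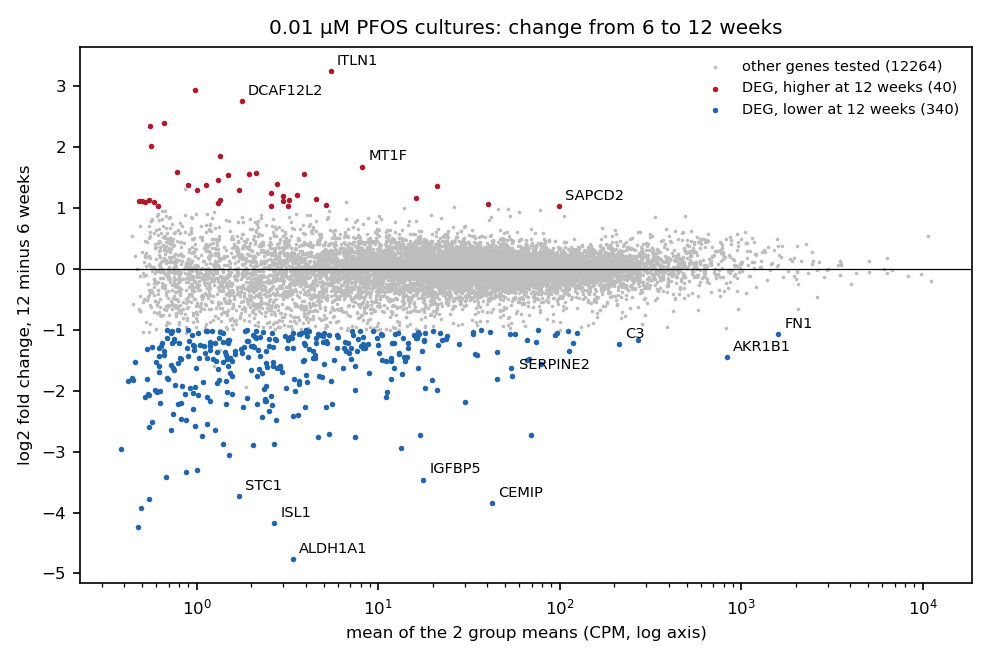
Change from 6 to 12 weeks at 0.01 µM PFOS (vertical axis, log2 fold change) against the mean level (horizontal axis, CPM on a log axis) for each gene tested, without 3 genes that had 0 counts in all libraries of a group. The 340 lower DEGs (blue) outnumber the higher ones (red), and FN1 and AKR1B1 are lower at levels near or above 1000 CPM.

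The falls and rises named next are the 10 largest of each direction among DEGs with a mean of at least 1 CPM over the 8 libraries and one direction in 4 vials. CEMIP (gene ID 57214, chromosome 15, 80779370 to 80951771 on GRCh38.p14), which encodes a hyaluronan-degrading protein, was at 94.7, 66.3, 83.0 and 73.9 CPM at 6 weeks in vials 1 to 4 and at 5.80, 6.48, 5.88 and 3.83 CPM at 12 weeks. Every 6-week library was more than 10-fold above every 12-week library. The fitted change on the log2 scale was −3.85 (standard error 0.15), with an edgeR adjusted p of 2.97e-08. IGFBP5 (gene ID 3488, chromosome 2, 216672105 to 216695549), a binding protein of insulin-like growth factors, fell from 41.7, 32.6, 30.8 and 24.6 CPM to 3.87, 2.85, 2.56 and 2.50 CPM, again with no overlap (log2 fold change −3.46, standard error 0.18, edgeR adjusted p = 1.51e-07). ALDH1A1 (gene ID 216, chromosome 9, 72900671 to 72953053), a retinaldehyde dehydrogenase, fell from 5.81 to 7.07 CPM at 6 weeks to 0.0549 to 0.333 CPM at 12 weeks (log2 fold change −4.76, standard error 0.24). ISL1, a LIM homeodomain factor, fell by 4.18 on the log2 scale and STC1, a secreted glycoprotein hormone, by 3.73. The other 5 of these falls were PCLO (−3.06), SPOCK1 (−2.95), PRAME (−2.90), CLSTN2 (−2.88) and DACH1 (−2.87). The groups did not overlap in any of the 10, nor in 33.6% of all genes tested. The rule had picked large changes with one direction in the 4 vials, which made this likely.

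The rises chosen by the same rule were in genes of low level. ITLN1 (gene ID 55600, chromosome 1, 160876540 to 160885180), the lectin omentin, was at 0.384, 1.10, 1.49 and 1.19 CPM at 6 weeks and at 5.42, 3.62, 13.5 and 17.2 CPM at 12 weeks. All 12-week libraries were higher, and they differed among themselves more than 4-fold (log2 fold change 3.25, standard error 0.71, edgeR adjusted p = 0.0126). DCAF12L2 was at 0.276 to 0.756 CPM at 6 weeks and 2.78 to 3.77 CPM at 12 weeks (2.76, standard error 0.25). The others were FOXJ1 (1.86), the master factor of motile cilia, the metallothioneins MT1F (1.68) and MT1M (1.56), the CDK inhibitor gene CDKN1C (1.59), the Ras exchange factor gene RASGRF1 (1.57), the homeobox genes HOXC4 (1.55) and HMX2 (1.46) and the calcium-binding calbindin gene CALB1 (1.40).

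Among abundant genes, AKR1B1 (gene ID 231, chromosome 7, 134442350 to 134459239), an aldo-keto reductase of glucose and prostaglandin metabolism, showed one of the 2 smallest adjusted p-values. It was at 1247, 1234, 1263 and 1145 CPM at 6 weeks and at 461, 424, 479 and 428 CPM at 12 weeks. The fall was far larger than the spread in either group (log2 fold change −1.45, standard error 0.06, edgeR adjusted p = 1.22e-09). SAPCD2 (gene ID 89958, chromosome 9, 137062127 to 137070557), involved in spindle orientation, had the same adjusted p in the other direction. Its levels were 66.8, 64.2, 62.7 and 65.9 CPM at 6 weeks and 135, 133, 131 and 132 CPM at 12 weeks, a spread of under 2 CPM (SD) within each time. C3, the central complement component, fell from 297 ± 37.8 CPM (SD, n = 4) to 126 ± 15.7 CPM (SD, n = 4), a log2 fold change of −1.24 (standard error 0.10). The panels of 12 genes show these levels library by library.

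**Figure D2:**
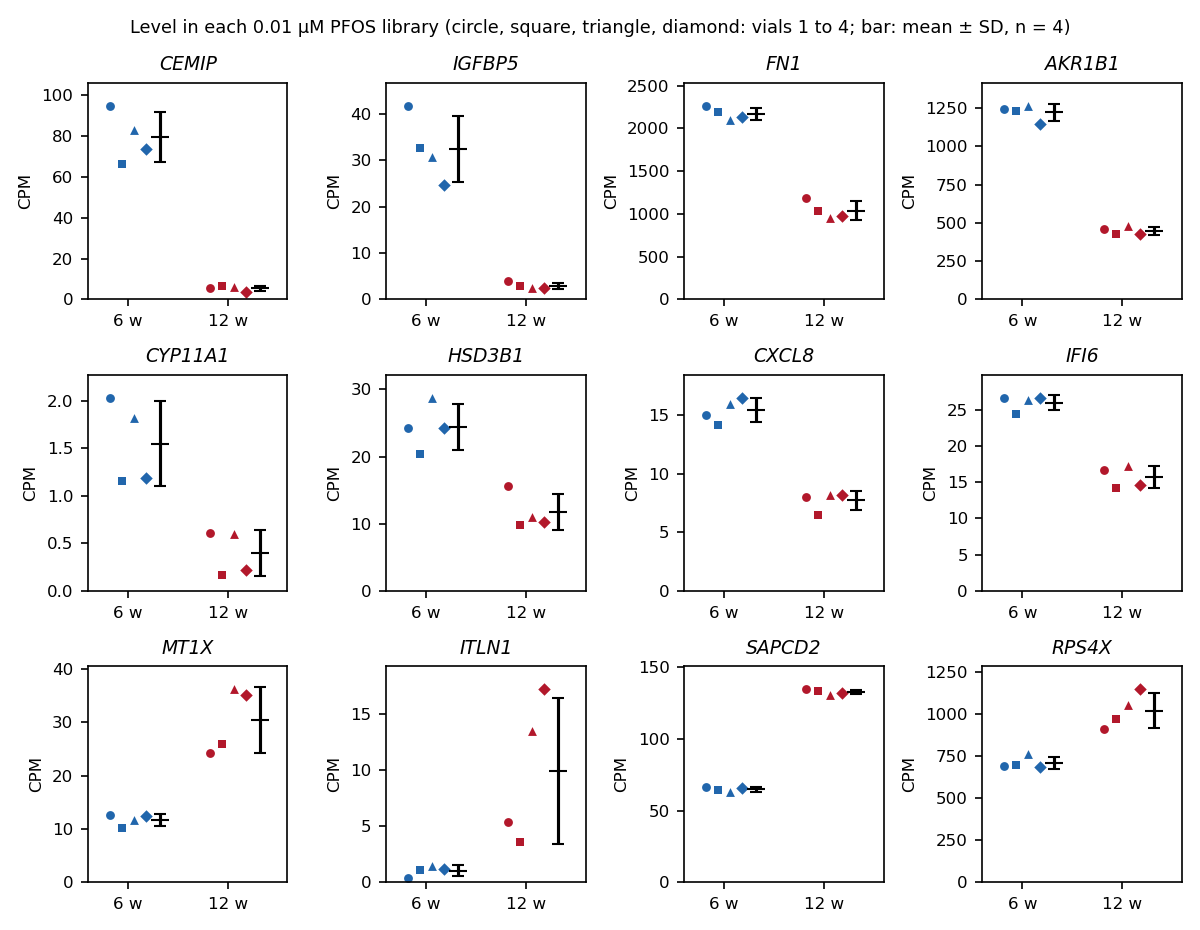
Level in CPM (vertical axis, from 0) of 12 genes in each 0.01 µM PFOS library at 6 weeks (blue) and 12 weeks (red), with one marker shape per vial and a bar for the mean ± SD (n = 4). The genes were picked among those that passed the test, and the groups do not overlap in any panel. The 12-week libraries of ITLN1 spread from 3.62 to 17.2 CPM.

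Most listed genes of the extracellular matrix and its receptors were lower at 12 weeks. Beside the list counts here and below stand the shares over all genes tested, 16.2% higher and 18.5% lower. Of 30 matrix, integrin and protease genes tested, 19 fell and none rose, with a median log2 fold change of −0.35 against 0.01 over all genes tested. FN1 (gene ID 2335, chromosome 2, 215360865 to 215436068), which encodes fibronectin, was at 2261, 2191, 2097 and 2137 CPM at 6 weeks and at 1192, 1033, 951 and 976 CPM at 12 weeks. All libraries of 12 weeks were below all of 6 weeks (log2 fold change −1.06, standard error 0.07, edgeR adjusted p = 7.91e-08). SERPINE2, a protease inhibitor of thrombin and plasminogen activators, fell from 84.5 ± 6.78 to 25.1 ± 3.04 CPM (SD, n = 4 each; log2 fold change −1.75). The fibronectin receptor subunit ITGA5 (−0.77), the collagen cross-linking enzyme LOX (−0.71) and the laminin chain LAMB1 (−0.56) fell as well. Of 18 collagen chains, 11 fell and 2 rose. COL13A1 (−2.26), COL8A1 (−1.52) and COL7A1 (−0.94) were among those that fell, and COL6A1 (0.41) and COL6A2 (0.57), neighbours on chromosome 21, were the 2 that rose. Of 17 genes of TGF-beta, BMP and SMAD response, 10 fell and none rose. They included TGFBI (from 372 ± 32.2 to 166 ± 11.9 CPM, SD, n = 4 each), the ligand BMP2 (−1.59) and the pseudoreceptor BAMBI (−0.47).

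Inflammatory genes were lower too. Of 16 chemokine, interleukin and NF-kappaB genes tested, 13 fell, none rose, and the median log2 fold change was −0.65. CXCL8 (gene ID 3576, chromosome 4, 73740569 to 73743716), the neutrophil chemokine, was at 15, 14.2, 16 and 16.5 CPM at 6 weeks and 8.07, 6.48, 8.16 and 8.21 CPM at 12 weeks. Its level about halved in every vial (log2 fold change −0.996, standard error 0.10, edgeR adjusted p = 1.83e-06). CXCL2 fell from 99.8 ± 5.13 to 35.8 ± 8.64 CPM (SD, n = 4 each), the regulator gene NFKBIZ from 71.9 ± 2.57 to 34.4 ± 6.79 CPM, IL6 from 85.1 ± 10.4 to 50.6 ± 6.91 CPM and the adhesion receptor ICAM1 from 250 ± 21.2 to 183 ± 8.70 CPM. CXCL3 had the largest fall of the list (−1.60) at a low level. Of 16 interferon-stimulated genes, 11 fell and none rose, with a median of −0.45. IFI6 was at 26.6, 24.4, 26.3 and 26.7 CPM at 6 weeks and at 16.7, 14.2, 17.3 and 14.7 CPM at 12 weeks. ISG15 (−0.70), IFIT3 (−0.79), MX1 (−0.78), OASL (−1.05) and OAS1 (−2.46), which serve antiviral defence, also fell without overlap of the groups.

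Of 13 steroidogenic genes tested, 6 fell and none rose, while the median of the list (−0.07) was near that of all genes. CYP11A1 (gene ID 1583, chromosome 15, 74337762 to 74367646), the side-chain cleavage enzyme, was at 2.03, 1.15, 1.82 and 1.19 CPM at 6 weeks and at 0.608, 0.165, 0.599 and 0.222 CPM at 12 weeks. The groups did not overlap, at a level of few counts (log2 fold change −1.94, standard error 0.35, edgeR adjusted p = 0.000594). HSD3B1 (gene ID 3283, chromosome 1, 119507203 to 119515058), which makes progesterone from pregnenolone, was at 24.2, 20.3, 28.8 and 24.2 CPM and then at 15.7, 9.83, 11.1 and 10.3 CPM (−1.06, standard error 0.14, edgeR adjusted p = 0.000142). STAR, which carries cholesterol into mitochondria, fell from 3.71 ± 0.435 to 1.91 ± 0.448 CPM (SD, n = 4 each). POR (−0.34), the electron donor of microsomal P450 enzymes, AKR1C3 (−0.63) and the steroid sulfatase gene STS (−0.34) fell by less. The call for AKR1C3 was lost without the 6-week library of vial 1 (edgeR adjusted p = 0.0537), and that for STS was lost in 4 of the 8 fits that each left out 1 library, without the libraries of vials 1 and 2 at 6 weeks and of vials 1 and 3 at 12 weeks (edgeR adjusted p between 0.0511 and 0.115). CYP17A1 had 1 count in the 8 libraries.

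Of 16 granulosa and gonadal factors tested, 5 fell and 1 rose. NR5A2, a nuclear receptor that drives steroidogenic genes, fell from 1.03 ± 0.0271 to 0.440 ± 0.187 CPM (SD, n = 4 each; log2 fold change −1.21, standard error 0.29). The activin subunit gene INHBA fell from 14.9 ± 2.48 to 8.88 ± 1.56 CPM and follistatin (FST) by 0.42 on the log2 scale. FOXL2, the ovarian forkhead factor, was at 1.87, 2.03, 1.49 and 0.756 CPM at 6 weeks and at 0.995, 1.04, 0.708 and 0.610 CPM at 12 weeks. Its groups overlapped and its call (−0.86, edgeR adjusted p = 0.0329) was lost in 5 of 8 fits that left out 1 library, all but those without the library of vial 4 at 6 weeks or of vials 1 or 2 at 12 weeks, with edgeR adjusted p up to 0.118. GATA6 was the gene that rose, from 111 ± 5.50 to 139 ± 9.71 CPM.

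The letters before the gene starts of some members of lists in which more genes fell than rose are shown. Each promoter shown was the only one read, among the genes of its list that fell, to hold the motif marked in it. Promoters of members without that motif are not shown. RefSeq promoters (GRCh38.p14) were read for the 250 bases before the start, 5′ to 3′ on the gene's strand, and motifs were searched on both strands. CXCL8 (chr4:73740319-73740568, + strand) holds the AP-1 motif TGAGTCA, in capitals as its reverse complement, as do 4.16% of the 27305 promoters read.
CXCL8: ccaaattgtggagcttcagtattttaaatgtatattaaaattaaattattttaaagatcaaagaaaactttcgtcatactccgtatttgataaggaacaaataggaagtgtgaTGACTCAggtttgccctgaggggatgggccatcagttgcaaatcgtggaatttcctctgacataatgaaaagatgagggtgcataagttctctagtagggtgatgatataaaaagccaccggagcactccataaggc
FN1 (chr2:215436069-215436318, − strand) holds the cyclic AMP response motif TGACGTCA, in capitals, as do 1.77% of promoters.
FN1: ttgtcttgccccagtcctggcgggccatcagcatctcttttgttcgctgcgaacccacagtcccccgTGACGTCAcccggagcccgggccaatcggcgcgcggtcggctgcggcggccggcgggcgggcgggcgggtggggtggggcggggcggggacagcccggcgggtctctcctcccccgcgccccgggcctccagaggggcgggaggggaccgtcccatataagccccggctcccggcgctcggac
HSD3B1 (chr1:119506953-119507202, + strand) holds the nuclear receptor motif AGGTCA, in capitals, as do 12.1% of promoters.
HSD3B1: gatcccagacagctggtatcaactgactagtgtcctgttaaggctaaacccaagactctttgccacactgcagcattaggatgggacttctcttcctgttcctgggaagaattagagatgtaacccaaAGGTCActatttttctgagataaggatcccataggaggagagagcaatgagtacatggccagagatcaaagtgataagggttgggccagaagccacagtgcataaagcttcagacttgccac
Across the lists, TGAGTCA was in 1 of 11 promoters of the chemokine and NF-kappaB genes that fell, TGACGTCA in 1 of 15 of the matrix genes that fell and AGGTCA in 1 of 4 of the steroidogenic genes that fell. The NF-kappaB motif GGGACTTTC was in 1 of the 11 (TNFAIP3) and in 0.315% of all promoters. Only these exact letters were searched, so the count does not show which promoters lack a variant site.

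Metallothioneins, small cysteine-rich proteins that bind zinc and copper and are induced by metals, rose as a family. All 6 members tested were higher at 12 weeks, with a median log2 fold change of 1.38, and the other 2 of the 8 listed had too few counts for the test. Without a filter on low counts, 5 rose and 1 fell. MT1F was at 3.68, 3.45, 4.58 and 3.78 CPM at 6 weeks and at 10.1, 10.9, 15.6 and 13.3 CPM at 12 weeks. MT1X (gene ID 4501, chromosome 16, 56682470 to 56684196) was at 12.6, 10.2, 11.7 and 12.5 CPM and then at 24.3, 26, 36.2 and 35.1 CPM (log2 fold change 1.37, standard error 0.13, edgeR adjusted p = 1.03e-05). In both genes each 12-week library was well above each 6-week one. Per transcript length the most abundant was MT2A, at 1920 TPM (transcript abundance scaled for length and depth) at 6 weeks and 2569 TPM at 12 weeks, with the smallest rise of the family (0.58, standard error 0.10), followed by MT1E (594 and 1085 TPM). MT1G, the least abundant, overlapped between the times (log2 fold change 1.38, edgeR adjusted p = 0.0377), and its call was lost in 4 of 8 fits that left out 1 library, those of vials 2 and 3 at 6 weeks and of vials 3 and 4 at 12 weeks (edgeR adjusted p up to 0.113). The members lie side by side on chromosome 16 and resemble each other in sequence, so the authors' counting could divide reads among them.

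RefSeq promoters were in the table for MT1X and MT2A, and they are shown because this family moved as one. The metal response element core was searched as TGCGCNC or TGCACNC, motifs chosen after the levels were known. It matched 4 times in MT1X (chr16:56682220-56682469, + strand) and 7 times in MT2A (chr16:56608334-56608583, + strand), in capitals on either strand, and at least once in 24.7% of all promoters.
MT1X: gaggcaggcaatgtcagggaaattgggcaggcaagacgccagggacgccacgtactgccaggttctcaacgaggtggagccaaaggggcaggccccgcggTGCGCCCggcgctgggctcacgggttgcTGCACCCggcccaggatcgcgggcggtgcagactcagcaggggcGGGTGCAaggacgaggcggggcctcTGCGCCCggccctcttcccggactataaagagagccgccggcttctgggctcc
MT2A: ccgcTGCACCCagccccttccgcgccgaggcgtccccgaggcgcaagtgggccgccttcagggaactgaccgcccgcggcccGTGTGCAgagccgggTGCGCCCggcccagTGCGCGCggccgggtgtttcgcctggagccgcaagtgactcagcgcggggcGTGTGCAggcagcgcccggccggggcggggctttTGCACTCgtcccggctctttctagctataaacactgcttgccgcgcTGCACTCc
The sites of MT1X began between 150 and 53 bases before the start and those of MT2A between 246 and 8 bases before it. Both promoters also hold the antioxidant response motif TGACNNNGC, as do 11% of all, and in MT2A it overlaps an AP-1 motif.

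Most listed ribosomal protein and cell cycle genes were higher, by small amounts. Of 26 cytosolic ribosomal protein genes tested, 25 rose and none fell, with changes between 0.16 and 0.54 on the log2 scale. RPS4X was at 693, 699, 765 and 685 CPM at 6 weeks and at 912, 971, 1058 and 1149 CPM at 12 weeks. The 12-week libraries were all higher and more widely spread (log2 fold change 0.52, standard error 0.07, edgeR adjusted p = 5.62e-05). RPL5 (0.47), RPS3 (0.44) and RPS27 (0.54) behaved alike. Ribosomal protein transcripts are short, and over all genes tested the median log2 fold change was 0.07 in the fifth of genes with the shortest transcripts and −0.03 in the fifth with the longest. The part of transcript length in the rise was not tested.

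Of 29 cell cycle and DNA replication genes, 17 rose and 2 fell, with a median of 0.23. CDC20, an activator of the anaphase-promoting complex, rose from 304 ± 11.9 to 419 ± 18.57 CPM (SD, n = 4 each), the helicase subunit gene MCM6 from 164 ± 2.88 to 217 ± 9.35 CPM, and BUB1 (0.38) and MCM7 (0.30) rose as well. RRM2, a subunit of ribonucleotide reductase, fell from 512 ± 4.97 to 413 ± 16.9 CPM, and the cyclin gene CCNE1 fell by 0.46 on the log2 scale with overlapping groups. The call of CCNE1 was lost without the library of vial 2 (edgeR adjusted p = 0.0526) or vial 3 (0.0589) at 6 weeks or of vial 4 at 12 weeks (0.0574). The E-box letters CACGTG, given out of several motifs searched, were in 6 of the 16 promoters of the cell cycle genes that rose. They were in 6.49% of all promoters, a share not matched for base composition. In the integrated stress and unfolded protein response list, 9 of 21 genes rose and 1, ATF5 (−0.32), fell. ASNS (gene ID 440, chromosome 7, 97851677 to 97928441), asparagine synthetase, was at 30.7, 28.1, 31.1 and 32.5 CPM at 6 weeks and at 54.5, 60.3, 58.6 and 67.8 CPM at 12 weeks. Its level about doubled in each vial (0.98, standard error 0.07, edgeR adjusted p = 9.2e-08). The serine synthesis genes PSAT1 (0.60), PHGDH (0.36) and SHMT2 (0.34) and the transcription factor ATF4 (0.30) rose too.

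The lists of lipid and sugar metabolism held more genes that fell than rose, and many that did not pass. In cholesterol synthesis and uptake, 12 of 23 genes fell and 1, PMVK (0.21), rose. The call of PMVK was lost without the library of vial 1 (edgeR adjusted p = 0.0662) or vial 2 (0.0515) at 6 weeks or of vial 4 at 12 weeks (0.0515). The enzymes DHCR7 (from 185 to 132 CPM), SC5D (60.4 to 42.9 CPM) and MVD (87.2 to 65.4 CPM) were among those that fell, without overlap of the groups. The sterol response letters ATCACCCCA were in 0 of the 9 promoters read for this list and in 0.168% of all. At that share 0 of 9 tells little, and variant sites were not searched. GCGTG, the core bound by the aryl hydrocarbon receptor (AHR), was in 9 of 9 against 31.9% of all. That short motif was also in 5 of 8 promoters of integrated stress genes that rose and 3 of 11 of chemokine genes that fell. Several motifs were searched per list, only some are given, and base composition was not matched. In fatty acid synthesis 3 of 9 fell, FASN among them, and SREBF1 rose. The call of FASN (edgeR adjusted p = 0.0487) was lost under 9 of 16 alternatives. These included each fit without the library of vial 2, 3 or 4 at either time (edgeR adjusted p up to 0.14). In fatty acid oxidation and PPAR targets, 9 of 17 fell and 1 rose, led by ANGPTL4 (−2.01), PLIN2 (−0.57) and CPT1A (−0.48). In glycolysis and hypoxia, 10 of 25 fell and 2 rose, with HK1 (−0.45) and ALDOC (−1.21) among those that fell. Of 15 antioxidant genes regulated by NRF2, 8 fell and 1 rose, including FTL (−0.47), OSGIN1 (−0.79) and SRXN1 (−0.53). Among 10 AHR targets, NQO1 (−0.32) and ALDH3A1 (−1.13) fell while TIPARP (0.31) and SLC7A5 (0.41) rose. CYP1A1, at 1.10, 0.548, 1.16 and 0.810 CPM at 6 weeks and 0.221, 0.549, 0.599 and 0.111 CPM at 12 weeks, and CYP1B1 were also called lower, but their groups overlapped. The call of CYP1A1 was lost in 4 of 8 fits that left out 1 library (vials 1 and 3 at 6 weeks, vials 1 and 4 at 12 weeks, edgeR adjusted p up to 0.0711) and that of CYP1B1 in 5 (vials 1 and 2 at 6 weeks, vials 1, 3 and 4 at 12 weeks, up to 0.117).

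Signalling and surface genes moved both ways. Over all genes tested 16.2% rose and 18.5% fell, so counts near those shares do not set a list apart. Of 27 immediate early genes, 8 rose and 3 fell. FOS was at 402, 418, 438 and 401 CPM at 6 weeks and at 756, 498, 735 and 560 CPM at 12 weeks, and ATF3 (0.40), NR4A3 (0.81) and EGR1 (0.86) rose, whereas IER3 (−0.54), DUSP4 (−0.53) and FOSL2 (−0.23) fell. In the prostaglandin and protease-activated receptor list, 6 of 11 genes fell, among them the thrombin receptor gene F2R (−0.78), F2RL2 (−2.77), the cyclooxygenase gene PTGS1 (−1.62) and the prostacyclin synthase gene PTGIS (−0.67), and PTGER4 (1.04), a receptor of prostaglandin E2, rose. Among 18 keratins, cadherins and EMT factors, 7 fell and 2 rose, with CDH11 at −1.50, KRT7 at −0.66 and KRT17 at 0.88. WNT2B fell (−1.82) and WNT7B rose (1.03) in a list of 14 with 4 lower and 3 higher. Of 12 YAP and TEAD targets, 3 fell, ANKRD1 (−1.63), F3 (−1.21) and NT5E (−0.70), and 3 rose, among them AJUBA (0.45) and LATS2 (0.46). Of 6 transporters, the efflux pumps ABCC3 (from 70.04 ± 5.02 to 20.1 ± 3.15 CPM, SD, n = 4 each), ABCG2 (−0.69) and ABCA1 (−0.46) fell and the lipid carrier gene FABP5 (0.35) rose. Among 21 p53 targets and CDK inhibitors, 6 rose and 4 fell, with IGFBP3 (1.00) and LMNB1 (0.46) higher and IGFBP5 (−3.46) and TP53I3 (−0.67) lower. Only 2 of 12 heat shock chaperone genes passed, HSPB1 (0.31) and HSP90AA1 (0.25), and 1 of 9 mitochondrially encoded transcripts, MT-ATP8, which overlaps MT-ATP6 so that reads of the pair cannot be divided with certainty. The call of HSP90AA1 was lost in 5 of 8 fits that left out 1 library (vials 2, 3 and 4 at 6 weeks, vials 2 and 4 at 12 weeks, edgeR adjusted p up to 0.0968). That of MT-ATP8 was lost in 7 of 8, all but the one without vial 3 at 6 weeks (up to 0.116), with total count scaling (0.0522) and without a filter on low counts (0.0636). That of EGR1 was lost without the library of vial 1 at 6 weeks (edgeR adjusted p = 0.0533). With the vial as a block, MT-ATP8 (edgeR adjusted p = 0.108) and EGR1 (0.0503) no longer passed, and 5 immediate early genes fell in place of 3.

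**Figure D3:**
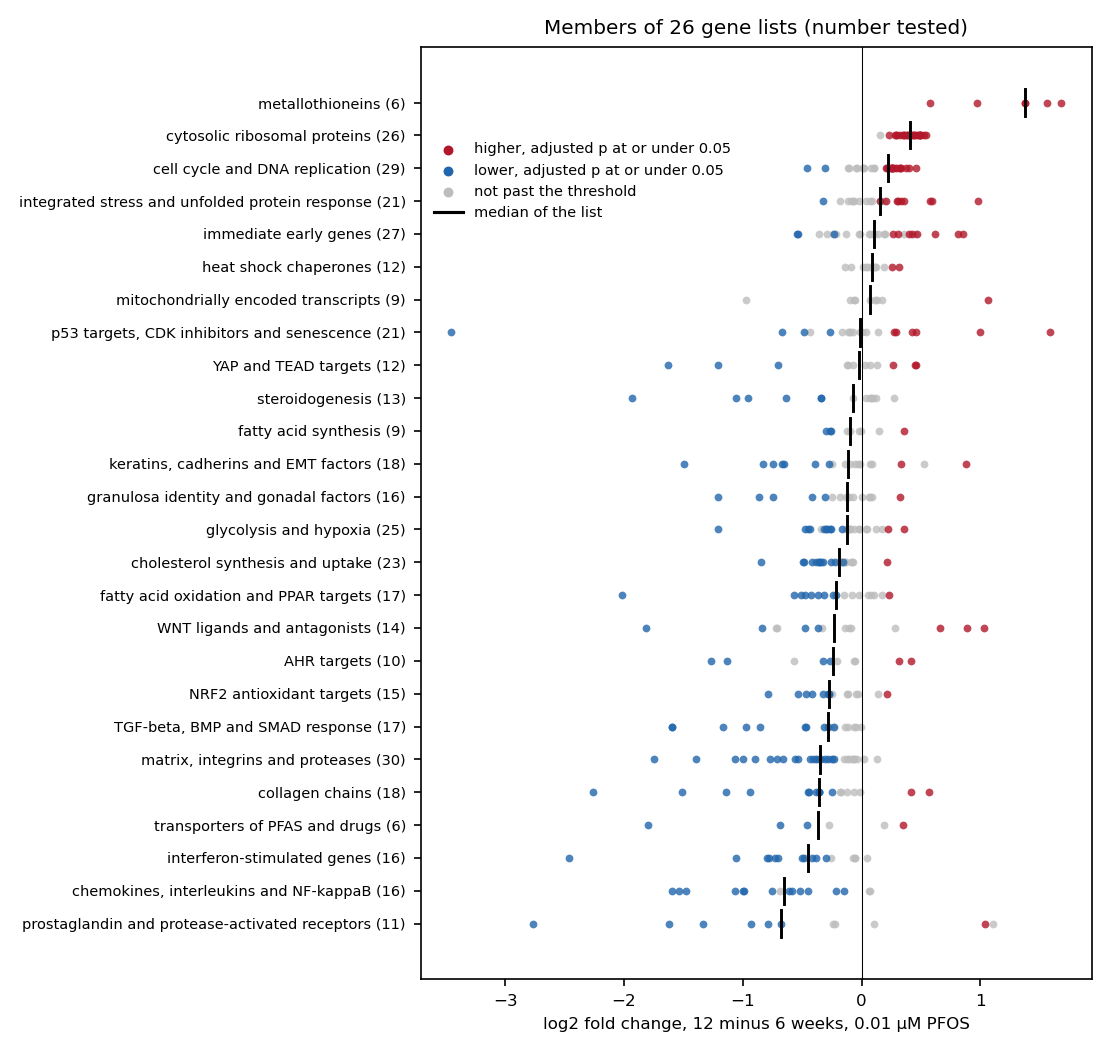
Change from 6 to 12 weeks at 0.01 µM PFOS (horizontal axis, log2 fold change) of the tested members of 26 gene lists, ordered by the list's median (black line), with genes that passed the test in red (higher) or blue (lower). All 6 metallothioneins and 25 of 26 ribosomal protein genes are red, and no chemokine, interferon, matrix or TGF-beta gene is.

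Reads assigned to 6 genes that the liver expresses were near 0 at 6 weeks and present at 12 weeks, while other liver markers had reads at both times. Whether they came from the cultured cells or from RNA or reads of another sample was not tested, so the values below describe the libraries. Summed over AFP, AHSG, ALB, APOB, GPC3 and AMBP, the 6-week libraries had 0, 0, 0 and 1 counts and the 12-week libraries 109, 131, 72 and 107 counts. ALB, serum albumin, had 0 counts in all 6-week libraries and 34, 51, 27 and 33 counts at 12 weeks, at least 12.1-fold higher, taking 3 counts per library as the floor. AFP was at least 7.92-fold higher and AHSG at least 7-fold higher on the same floor (edgeR adjusted p = 2.17e-06 for ALB, 9.06e-06 for AFP and 1.42e-05 for AHSG). With the control libraries in the same fit, AFP (edgeR adjusted p = 0.106) and AHSG (0.168) no longer passed. APOB, at 0 counts and then 10 to 19, was not tested because of its low counts. Sums in the other groups were 0 to 1 in the 6-week control, 88 to 141 at 0.1 and 1 µM and 6 weeks, 92 to 174 at 0.1 and 1 µM and 12 weeks, and 81 to 919 in the 12-week control, with 919 in the library of vial 3. Of 18 liver markers in all, 7 could be tested, 3 of them higher and 1, VTN, lower (edgeR adjusted p = 4.21e-06). SERPINA1, APOA1 and TF did not pass. Of the 18, 2 had 0 counts in all 8 libraries, and the whole list summed to 1408 to 1636 counts at 6 weeks and 1144 to 1230 at 12 weeks.

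**Figure D4:**
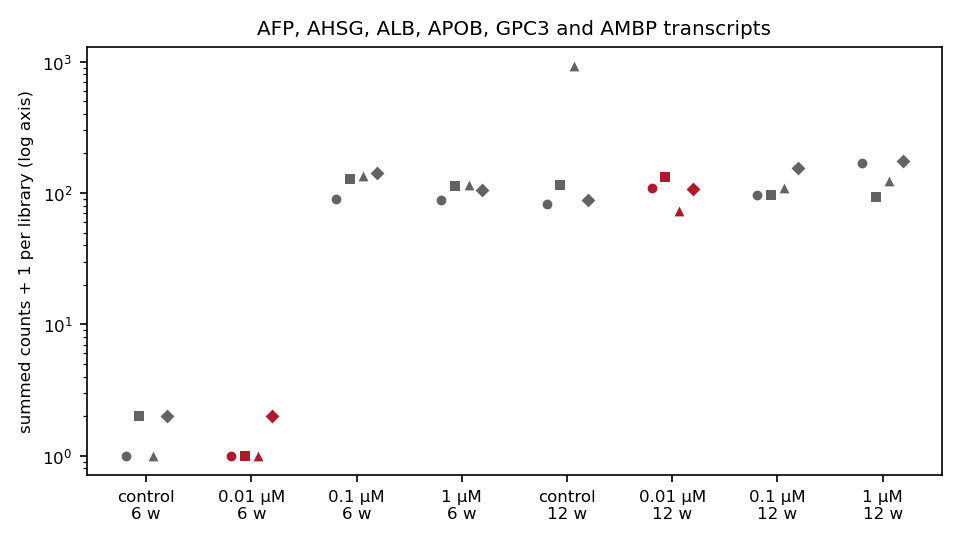
Summed counts plus 1 of 6 liver transcripts in each library (vertical axis, log scale) of the 8 groups of the series, with the 0.01 µM PFOS libraries in red and one marker shape per vial. The 0.01 µM libraries go from 0 to 1 counts at 6 weeks to 72 to 131 counts at 12 weeks, and the 12-week control holds one library with 919 counts.

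Markers of other cells that a culture could hold were counted in the same 8 libraries. Of 7 leukocyte markers, 2 could be tested and both were lower at 12 weeks (summed counts 552 to 612 and then 315 to 427), and 2 had 0 counts throughout. Endothelial markers summed to 106 to 127 and then 58 to 79 counts, with 2 of 3 tested lower, and theca and fibroblast markers to 73839 to 84922 and then 65899 to 75429, with 2 of 5 lower. Of epithelial markers 1 of 6 was lower, and the 1 oocyte marker tested did not pass. Over all genes tested, 18.5% were lower. The theca and fibroblast list shares COL1A1 and COL3A1 with the list of collagen chains. The part of such other cells in the lower matrix and inflammatory genes was not tested.

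The vehicle controls of the same vials aged in parallel, and their libraries are separate from those at 0.01 µM, so the 2 changes with time share vials but no library. In the control, 4053 of 12614 genes changed (32.1%), and 2.79% were DEGs, 2.35% lower. Over 12555 genes tested in both, the log2 fold changes of the 2 treatments correlated with Pearson's r = 0.873, given as a description across genes, which share depth and are not independent. Of the genes that changed at 0.01 µM, 2924 changed in the same direction in the control (66.9% of those at 0.01 µM and 72.4% of those in the control), and 1, ZFP36L1, changed in opposite directions. Of 368 DEGs at 0.01 µM that were tested in the control, 367 had the same sign there. CEMIP changed by −3.08 in the control and −3.85 at 0.01 µM, AKR1B1 by −1.35 and −1.45, FN1 by −1.23 and −1.06, CYP11A1 by −2.03 and −1.94 and ASNS by 0.94 and 0.98. AKR1C3 changed by −1.56 and −0.63. As at 0.01 µM, TGF-beta genes fell (12 of 17) and ribosomal protein genes rose (26 of 26) in the control. Metallothioneins rose there too (6 of 7, none lower), as did cell cycle genes (14 of 29, none lower). Interferon-stimulated genes fell (10 of 17, none higher), and collagen chains had 11 of 18 lower and 2 higher. Matrix, integrin and protease genes had 15 of 30 lower and 3 higher, and steroidogenic genes 8 of 14 lower and 3 higher. Genes regulated by NRF2 had 9 of 15 lower and 1 higher. Some other lists differed more in their counts. Chemokine and NF-kappaB genes had 4 lower and 2 higher in the control (13 and 0 at 0.01 µM). Cholesterol genes had 3 and 1 (12 and 1) and fatty acid synthesis genes 0 and 4 (3 and 1). For immediate early genes it was 0 and 14 (3 and 8). In the plot of the 2 changes the points lie near the line of equal change. Over the genes tested in both, a line through the origin had a slope of 0.858 for the control on 0.01 µM. The DEGs were picked by their change at 0.01 µM.

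**Figure D5:**
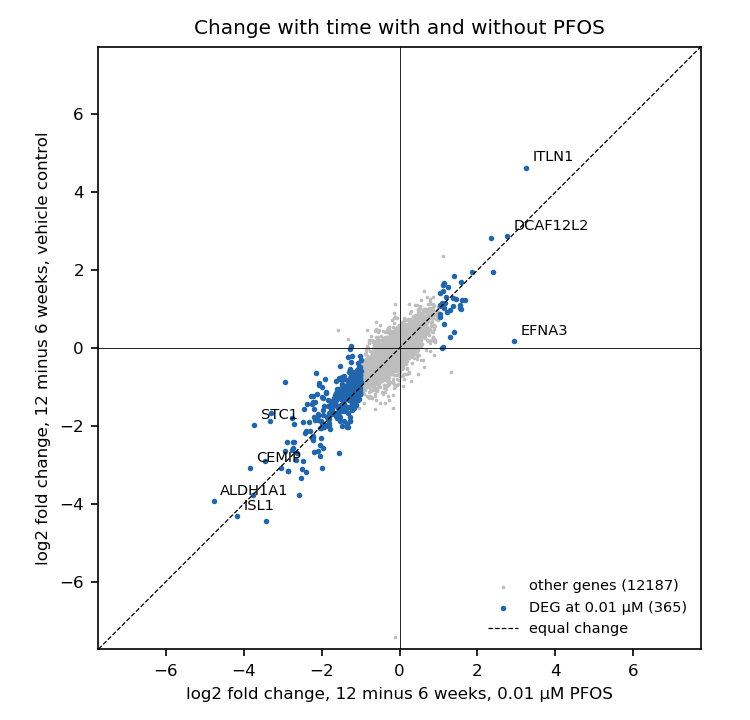
Change from 6 to 12 weeks (log2 fold change) at 0.01 µM PFOS (horizontal axis) and in the vehicle control (vertical axis) for genes tested in both, DEGs at 0.01 µM in blue. Nearly all DEGs, which were picked by their change at 0.01 µM, lie in the same quadrants, near the dashed line of equal change.

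A test of the difference itself, in one fit of all 32 libraries, found 0 of 12988 genes (edgeR, adjusted p at or under 0.05) whose change with time at 0.01 µM differed from that in the control, with 972 genes at an unadjusted p under 0.05. DESeq2 on the same libraries found 2, ZFP36L1 and C1QTNF6. ZFP36L1, which encodes a protein that destabilizes AU-rich mRNAs, was at 183, 192, 191 and 195 CPM at 6 weeks and at 183, 150, 154 and 146 CPM at 12 weeks at 0.01 µM. The 12-week library of vial 1 was level with the 6-week libraries while the other 3 were lower. The change was −0.26 at 0.01 µM and 0.13 in the control (difference −0.40, standard error 0.08, edgeR adjusted p = 0.145), and without that library the difference passed (−0.47, edgeR adjusted p = 0.000689). C1QTNF6, a secreted protein related to complement C1q, changed by −0.65 at 0.01 µM and −0.16 in the control (difference −0.49, standard error 0.10, edgeR adjusted p = 0.145). Genes whose fitted changes lay further apart had wider errors: STC1 (difference −1.75, standard error 0.51), C3 (−0.88, standard error 0.28), IL6 (−0.66, standard error 0.27) and PTGDS (−1.25, standard error 0.41) all had edgeR adjusted p above 0.4.

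At the higher concentrations 5597 genes changed with time at 0.1 µM (44.2%, with 3.33% DEGs and 3.02% lower DEGs) and 3956 at 1 µM (31.3%, with 2.7% and 2.42%). Of 12988 genes, 1 (0.0077%) differed in its change between 0.01 and 0.1 µM in edgeR's fit of the 32 libraries. VMP1 (gene ID 81671, chromosome 17, 59707654 to 59842255), an endoplasmic reticulum protein of autophagy, was that gene. At 0.01 µM it was at 76.2, 72.2, 75.7 and 67.7 CPM at 6 weeks and 67.9, 68.6, 75.7 and 78.5 CPM at 12 weeks, with overlapping groups, while at 0.1 µM it changed by −0.41 (difference 0.40, standard error 0.07, edgeR adjusted p = 0.0268). In a fit of the 0.01 and 0.1 µM libraries alone, ALB (difference 8.17), AHSG (7.85), AFP (7.77) and APOB (6.66) differed beside VMP1. DESeq2 on the 32 libraries also called ALB, AFP and APOB. Between 0.01 and 1 µM, 59 genes differed in their change (0.454%), 37 with a more positive change at 0.01 µM and 22 with a more negative one. Of these, 9 are ribosomal protein genes, all more positive at 0.01 µM, by 0.33 to 0.49 on the log2 scale, for example RPS15A (0.49), RPS23 (0.44) and RPS25 (0.43). None of the 9 is in the list of 26 ribosomal protein genes used above, and 0 of those 26 differed by this test. That list had a median change of 0.41 at 0.01 µM, 0.34 in the control, 0.28 at 0.1 µM and 0.18 at 1 µM. CDKN1B, a CDK inhibitor gene, also differed (0.30, standard error 0.07), as did NRBP2 (−0.39), and NDP (−2.09), at under 1 CPM, was the one gene with a difference of at least 2-fold. With the 16 libraries of the 2 treatments alone 7 genes differed, ALB, AHSG, AFP, APOB, TIPARP, CPEB4 and LENG8, and none of the genes named for 1 µM in this paragraph was among them. With DESeq2 391 genes differed.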

How the data were processed

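Poly(A) RNA of HGrC1 cultures was sequenced in 32 libraries, and the 8 at 0.01 µM PFOS are the subject here. Per the labels and the paper's methods, the authors aligned stranded poly(A) reads with HISAT2 2.0.4 and Bowtie2 2.2.5 and deposited expected counts per gene from RSEM 1.2.8, without normalization, beside TPM values normalized for transcript length and depth. The versions come from the submitters' processing notes. FPKM and normalized columns, and 0 unmapped columns, were left out. Of 47137 gene entries, 18583 had values.

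Expected counts were rounded and tested with edgeR 4.0.16 (robust quasi-likelihood, two-sided, TMM, filterByExpr, Benjamini-Hochberg) in R 4.3.3, on the 8 libraries for the change with time and on all 32 for differences between treatments. CPM are TMM-scaled. DESeq2 1.42.0, other scalings, filters, sets of libraries and a vial block were alternatives. Single genes were tested by exact two-sided permutation of log2(CPM + 1). The fits were tested on simulated data.

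Named genes were the 10 largest rises and falls among DEGs with a mean of at least 1 CPM and one direction in 4 vials, up to 5 genes per list by lowest p, and genes the study names. Others, such as AKR1B1, SAPCD2, C3, FOXL2, STS, MT1G, RPS27, CXCL3, OAS1, EGR1, COL6A1, PTGER4, VMP1 and ZFP36L1, were chosen after their values were seen. Some genes that the rule names are not reported here. The members and lists were chosen with earlier results of these data known. The labels tie the replicate numbers to vials whose flasks were split into the groups, so the numbers pair the libraries. Deviations of same-vial libraries correlated with r between 0.0422 and 0.191 in the 4 vials, against −0.197 to 0.188 between vials, and 2 of 4 correlated best with their own number. Within groups, pairs of replicates had a chi-square per degree of freedom of 3.14 to 6.82 at 6 weeks and 5.45 to 16.2 at 12 weeks. Of the 12 pairs, 0 were identical. Gene coordinates and promoters are from RefSeq (GRCh38.p14), and figures were drawn with matplotlib in Python.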

Additional observations from a re-analysis of the deposited data

Results flagged for a closer look

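Of 312 groups of 4 values examined (the genes named and 3 sums per library), 21 held 1 library that stood apart from the other 3 beyond Dixon's 95% limit, and chance alone gives about 1 in 20. At 6 weeks these were PRAME in vial 2 (2.47 CPM, low), LMNB1 in vial 2 (167 CPM, low), AKR1C3 (3.73 CPM, high), WT1 (55.6 CPM, low), SRXN1 (114 CPM, high) and PTGIS (650.4 CPM, low) in vial 1, and RPS4X in vial 3 (765 CPM, high). The sum of liver transcripts was 1 count in vial 4 against 0 in the others. At 12 weeks, vial 1 stood apart in LAMB1 (259.6 CPM), COL8A1 (7.74 CPM), NR5A2 (0.719 CPM), WNT2B (11.4 CPM) and the read-through gene EFNA4-EFNA3 (0.221 CPM), each time as the highest library. Vial 2 stood apart in CDKN1C (2.09 CPM, low), HOXC4 (2.85 CPM, high) and CXCL8 (6.48 CPM, low), vial 3 in CDH11 (43.3 CPM, high), AJUBA (244.5 CPM, low) and EFNA3 (2.29 CPM, high), and vial 4 in DCAF12L2 (3.77 CPM, high) and ACLY (283 CPM, low).

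The change with time at 0.01 µM differed by test from that at 0.1 µM in VMP1 (0.40 on the log2 scale) and from that at 1 µM in CDKN1B (0.30), RPS25 (0.43), RPS15A (0.49), RPS23 (0.44), NRBP2 (−0.39) and NDP (−2.09).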

How the results depend on the processing

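The number of genes that changed stayed within 1.5 times of 4390 under all alternatives run, between 3455 and 4803 when 1 library was left out. The number of DEGs (383) was 362 to 447 when 1 library was left out and 253 with at least 10 counts required in every library, of which 246 are among the 383. That filter removes genes that fall to a few counts. With total count scaling the share of changed genes that were higher was 40.9% in place of 46.6%. With the vial as replicate block, 4600 genes changed (2150 higher and 2450 lower) and 396 were DEGs, 382 of them among the 383, so the pairing moved neither count by 1.5 times. Differences from the control numbered 0 without the block and 0 with it, 0 or 1 when 1 library was left out, and 2 with DESeq2. Differences from 0.1 µM numbered 1, and 5 with DESeq2 or with the 16 libraries alone. Differences from 1 µM numbered 59, and 391 with DESeq2, 167 with at least 10 counts in every library and 7 with the 16 libraries alone, and the cause was not tested. With the block, these were 1 and 64. Of 186 genes named or examined that passed, 167 passed under all alternatives run and 19 lost the call under at least 1, while 0 reversed. Under the block FASN (edgeR adjusted p = 0.116), MT-ATP8 (0.108) and EGR1 (0.0503) no longer passed, and PTGDS (0.0107) and KITLG (0.0241) did; it changed no other call among these genes. Among list counts, under the block 1 steroidogenic gene rose, 5 immediate early genes, 2 integrated stress genes, 1 chaperone and 1 mitochondrial transcript fell, 2 prostaglandin and receptor genes rose, and 0 mitochondrial transcripts rose. Depth limits genes under about 10 counts per library: 14 DEGs had a mean below that. Floors cover counting error only. Standard errors were derived from the log2 fold change and edgeR's F statistic and include the spread between libraries.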

Other observations

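EFNA3, an ephrin ligand, and the read-through gene EFNA4-EFNA3 share exons on chromosome 1 and moved in opposite directions. EFNA3 was at 0, 0.548, 0 and 0.324 CPM at 6 weeks and at 1.55, 1.59, 2.29 and 1.498 CPM at 12 weeks, while EFNA4-EFNA3 was at 0.988, 0.658, 1.27 and 0.810 CPM and then at 0.221, 0, 0 and 0 CPM. Each passed the test, but reads of shared exons could have gone to either entry, so neither value alone is certain. In the control EFNA3 changed by 0.17 (standard error 0.66).

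Some lists held more small differences from the control than others, although no gene passed the adjusted threshold. Over all genes, 7.48% had an unadjusted p under 0.05 for the difference of the changes with time. In cholesterol synthesis and uptake it was 11 of 23 genes, in fatty acid synthesis 6 of 9 and among immediate early genes 12 of 28, and in all of these the change at 0.01 µM was the more negative one. The median difference was −0.20, −0.21 and −0.24 on the log2 scale. Among chemokine and NF-kappaB genes it was 5 of 18, all more negative at 0.01 µM, with a median difference of −0.32, and 5 of 21 collagen and 5 of 31 matrix genes also went that way. AHR targets (4 of 10, with 2 in each direction) and steroidogenic genes (5 of 14, with 2 more negative and 3 more positive) went both ways. Genes of one pathway vary together, so these counts are a description.

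PTGDS, prostaglandin D synthase, did not pass at 0.01 µM (1.10, standard error 0.38, edgeR adjusted p = 0.0576, higher in 3 of 4 vials; with the vial as a block 0.0107) and its groups overlapped, at 2.58, 4.88, 5.63 and 3.89 CPM and then 7.74, 4.56, 14 and 10.2 CPM. F2RL3, a protease-activated receptor gene, was at 2.53 ± 0.556 CPM and 2.17 ± 0.573 CPM (SD, n = 4 each; −0.22, edgeR adjusted p = 0.447).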
